A study of Homo sapiens with 3 samples.

Results

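The SERPINA gene cluster on chromosome 14 was examined for binding of FOXA2, a forkhead transcription factor of endoderm-derived tissues. The region ran from 94700000 to 95140000 on hg19. It reaches from below SERPINA10, whose lower end is at 94749650, to beyond SERPINA3, which ends at 95090392, with about 50 kb on each side. Every FOXA2 peak with its midpoint in this region was taken, which gave 27 of 63949 peaks in replicate 1 and 9 of 26907 in replicate 2. All 9 replicate 2 peaks overlapped a replicate 1 peak, so the cluster held 9 of the 24345 sites shared by the replicates. The 9 serpin genes of the cluster are, in order, SERPINA10, SERPINA6, SERPINA1, SERPINA11, SERPINA9, SERPINA12, SERPINA4, SERPINA5 and SERPINA3.

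The data come from Caco2 cells grown without a named treatment, an established colorectal adenocarcinoma line that can take on enterocyte features in culture. In chromatin immunoprecipitation followed by sequencing (ChIP-seq), DNA held by a protein is pulled down with an antibody, and its sequenced ends, called tags, pile up where the protein sat. The only group with peaks is the FOXA2 immunoprecipitation, in 2 replicates with the antibody sc-6554. A library of Caco2 chromatin without antibody served as the input for peak calling. A single cell line in a single state leaves the replicates as the only comparison, and no expression values were analysed. Replicate 1 held 26183147 tags and replicate 2 held 15756702. The labels do not say whether they came from separate cultures, so the spread between them may be technical.

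Serpins are mostly inhibitors that trap serine proteases by an irreversible change of shape. The genes of this cluster arose by duplication, and several of them are best known as products of the liver. SERPINA1 encodes alpha-1 antitrypsin, the main plasma inhibitor of neutrophil elastase, which enterocytes and Caco2 cells also make. SERPINA3 encodes antichymotrypsin, an acute-phase inhibitor of cathepsin G. SERPINA4 encodes kallistatin, an inhibitor of tissue kallikrein, and SERPINA5 encodes the protein C inhibitor. SERPINA10 encodes the protein Z-dependent inhibitor of coagulation. SERPINA6 encodes corticosteroid-binding globulin, a hormone carrier that does not inhibit proteases. SERPINA12 encodes vaspin, an adipokine, and SERPINA9 encodes centerin of germinal-centre B cells. FOXA proteins bind DNA through a winged-helix domain that reads short forkhead motifs.

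RefSeq promoter sequences (GRCh38.p14) were matched for all 9 genes and gave 13 transcription starts. The 250 bases before each start were searched on both strands for 3 forkhead motifs. The first was TGTTTAC, the second was TATTTAC and the third was TGTTTGC. Of the 13 starts, 3 held at least 1 of them, in SERPINA6, SERPINA1 and SERPINA11, against 8.27% of all 35116 starts in the table. These 3 are shown because they are the cluster's promoters with a forkhead motif. Capitals mark forkhead motifs and the letters GTTAAT, the half-site core of HNF1 factors. The SERPINA1 stretch ends 51 bases before the second of its 2 RefSeq starts (chr14:94388653-94388852, minus strand). The SERPINA6 (chr14:94323337-94323586) and SERPINA11 (chr14:94452801-94453050) stretches, both also on the minus strand, end at the base before the start.
SERPINA1: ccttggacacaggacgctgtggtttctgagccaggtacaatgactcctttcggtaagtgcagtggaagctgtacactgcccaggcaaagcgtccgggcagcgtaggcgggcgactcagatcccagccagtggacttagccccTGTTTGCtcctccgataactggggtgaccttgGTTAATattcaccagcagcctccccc
SERPINA6: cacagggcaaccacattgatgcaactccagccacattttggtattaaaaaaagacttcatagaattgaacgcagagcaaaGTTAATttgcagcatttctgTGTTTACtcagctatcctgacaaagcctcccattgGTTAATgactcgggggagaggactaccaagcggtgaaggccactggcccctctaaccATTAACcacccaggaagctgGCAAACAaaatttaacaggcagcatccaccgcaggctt
SERPINA11: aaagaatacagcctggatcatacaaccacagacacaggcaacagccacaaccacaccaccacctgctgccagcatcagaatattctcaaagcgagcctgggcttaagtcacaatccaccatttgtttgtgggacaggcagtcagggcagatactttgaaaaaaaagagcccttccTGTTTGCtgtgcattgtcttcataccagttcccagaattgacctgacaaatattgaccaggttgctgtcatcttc

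SERPINA6 was the only one of the 3 with a pair of forkhead motifs. Its TGTTTAC lay 150 to 144 bases before the start on the strand of the gene, and its TGTTTGC lay 38 to 32 bases before it on the opposite strand. The single TGTTTGC of SERPINA1 lay 108 to 102 bases before its second start, followed by GTTAAT at 76 to 71. In SERPINA11, TGTTTGC lay 75 to 69 bases before the start. Across the table, TGTTTAC was present at 2.98% of starts, TATTTAC at 2.39% and TGTTTGC at 3.23%. The letters GTTAAT, added after the sequences had been seen, were found at 4 of the 13 starts, those of SERPINA10, SERPINA6, SERPINA1 and SERPINA4, against 6.23% of all starts. AGATAA, the GATA motif, was found in SERPINA12 and SERPINA3, or 2 of 13 starts against 9.17%. TTTATNG, read by CDX factors (8.93% of starts), CAAAGTCCA, a motif of HNF4 factors (0.325%), and the full palindromic HNF1 motif (0.0057%) matched none of the 13. A match is a run of letters and not a measured site. Of 27 other serpin genes looked up, 18 were in the table with 28 starts. Of these, 1 start held a forkhead motif, that of SERPIND1, the gene of heparin cofactor II. The letters GTTAAT were found in 3 of these 18 genes, beside 4 of the 9 genes of the cluster.

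The cluster held more FOXA2 sites than most stretches of its length, and they were unevenly spread along it. Its 9 shared sites gave 2.05 per 100 kb, against 0.912 over all windows of 440 kb that held a peak of either replicate, a 2.24-fold difference. Such density was not rare, since 12.9% of the 6069 windows had 9 or more shared sites. On chromosome 14 the windows had a median of 2 shared sites, and 16 of 189 reached 9. By peaks of either list alone the cluster had 2.56 times the density of all windows in replicate 1 and 2.03 times in replicate 2.

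**Figure D1:**
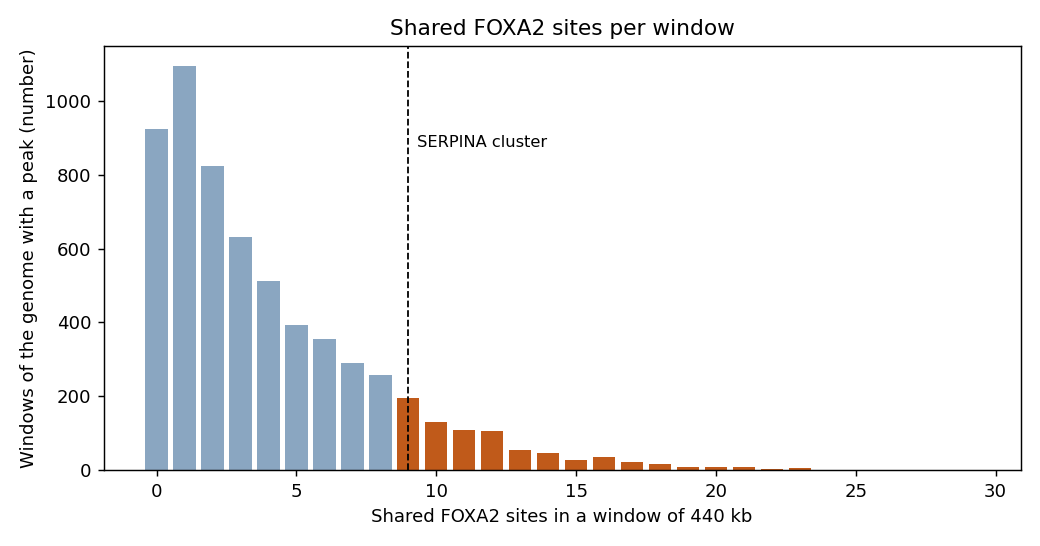
Number of shared FOXA2 sites (horizontal axis) against the number of 440 kb windows of the genome that held them (vertical axis), for windows with a peak in either replicate. Orange bars are windows with 9 or more sites, and the dashed line marks the 9 sites of the SERPINA cluster, a count reached by 12.9% of windows.

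Peak strength is given as the authors' score, which the deposited lists do not name. It was read as the tags of a peak scaled to 10000000 tags per library and rounded, called normalised tags here. On this reading, a score of 1 equals roughly 2.62 tags in the deeper replicate 1, and roughly 1.58 in replicate 2. The lowest scores of shared sites, 3 in replicate 1 and 5 in replicate 2, convert to fewer tags than the calling thresholds of 11 and 10. Converted tags are therefore approximate and not on the scale of those thresholds. The cluster's shared sites had a median mean score of 24.5, ranging from 10 to 53.5, against a median of 14.5 (interquartile range 9.5 to 24.5) over all shared sites. Of the 9, 8 were at or above that genome-wide median. The 2 strongest also reached the score of 44 that bounds the top 10.1% of all shared sites. The highest mean score of any shared site in the genome was 447.

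**Figure D2:**
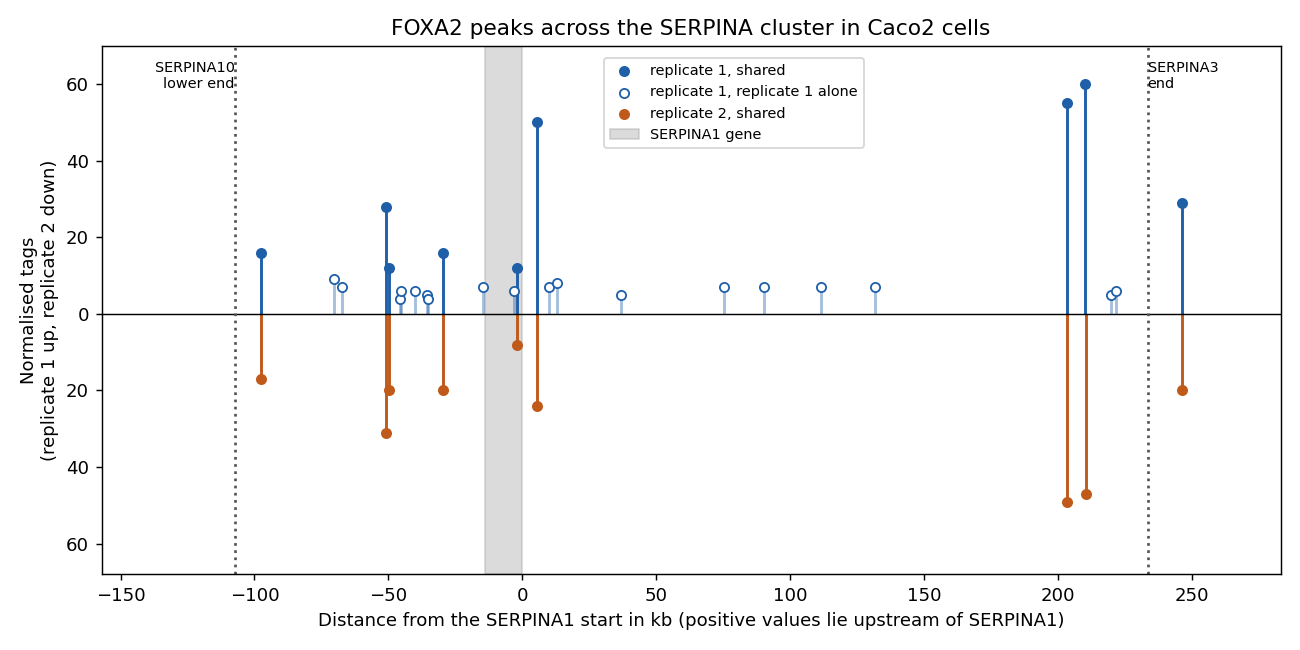
FOXA2 peaks by distance from the SERPINA1 start in kb (horizontal axis) and score in normalised tags (vertical axis), with replicate 1 drawn upward and replicate 2 downward. Filled points are shared sites and open points are peaks of replicate 1 alone. The sites with the highest mean scores lie 5.42, 203 and 210 kb upstream of SERPINA1. In replicate 2 alone, the first of these (24) is below the site 50.8 kb on the other side of the SERPINA1 start (31). The 198 kb between the first pair hold open points only.

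The stretch from the lower end of SERPINA10 to the lower end of SERPINA1 is 93.4 kb long and held 4 shared sites of moderate score. RefSeq places SERPINA10, SERPINA6 and the pseudogene SERPINA2 in it, all before SERPINA1 in coordinate order. The first site, at 94759552 to 94759674, lay 9.96 kb above the lower end of SERPINA10. It scored 16 in replicate 1 and 17 in replicate 2 (16.5 ± 0.707, mean ± SD, n = 2), and the midpoints of its peaks were 1 bp apart. It was the most isolated site of the cluster, with the next shared site 46.6 kb away.

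A close pair of sites followed. The site at 94806188 to 94806310 scored 28 and 31 (29.5 ± 2.12, n = 2) and was the strongest of this stretch. Its neighbour at 94807054 to 94807176 scored 12 in replicate 1 and 20 in replicate 2 (16 ± 5.66, n = 2). Their midpoints were 866 bp apart, the shortest spacing in the cluster, and both replicates resolved the pair. The first was stronger in each replicate, by 2.33 times in replicate 1 and 1.55 times in replicate 2. The fourth site, at 94827308 to 94827430, lay 15.7 kb below the lower end of SERPINA1, which is its 3′ side, and scored 16 and 20 (18 ± 2.83, n = 2). All 4 sites of this stretch scored higher in replicate 2, and all 5 others of the cluster scored higher in replicate 1. Over all shared sites, 63.7% scored higher in replicate 1 and 29.7% in replicate 2. With 2 libraries the direction of each single site has no test.

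SERPINA1 (94843084 to 94857029, minus strand, so that its start is at the upper end) had a weak site inside the gene and a stronger one upstream. The inner site, at 94855004 to 94855126, scored 12 in replicate 1 and 8 in replicate 2 (10 ± 2.83, n = 2), the lowest mean of the 9. These scores convert to about 31.4 and 12.6 tags. In replicate 2 the inner site was at the lower quartile of all shared sites (8), whose lowest score was 5. The replicates placed it 61 bp apart, a distance reached by 5.46% of all shared sites. Its midpoint lay 1.96 kb inside the gene from the start in replicate 1 and 2.03 kb in replicate 2. RefSeq lists the second start of SERPINA1, whose sequence with TGTTTGC is printed above, 2.03 kb after the first start. The first pair of distances is on hg19 and the last on GRCh38.p14, and no coordinates were converted, so whether this peak covers that start was not tested.

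The upstream site, at 94862386 to 94862508, lay 5.42 kb from the SERPINA1 start and 7.38 kb from the inner site. It scored 50 in replicate 1 and 24 in replicate 2 (37 ± 18.4, n = 2), the widest spread of the cluster. Its ratio of 2.08 was 1.74 times the median ratio of 1.20 over all shared sites. The inner and the upstream site kept their order in both replicates. The upstream one was 4.17 times as strong in replicate 1 and 3 times in replicate 2. Within SERPINA1, replicate 1 alone also had a peak with a score of 6, at 94853820 to 94853942, 1.18 kb from the inner site.

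Beyond this site the cluster had no shared site for 198 kb. The stretch lay between the midpoints of the upstream SERPINA1 site and the site at 95060391. Replicate 2 had no peak in it, and replicate 1 had 7, all with scores between 5 and 8. Gaps of this length were not unusual, as 15.3% of the gaps between consecutive shared sites in the genome were as long or longer, with a median of 38.8 kb. RefSeq order puts SERPINA11, SERPINA9, SERPINA12, SERPINA4 and SERPINA5 between SERPINA1 and SERPINA3. The hg19 limits of these 5 genes and of SERPINA6 were not used here, so single sites are not assigned to any of them.

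The strongest sites of the cluster formed a pair at its SERPINA3 end. The site at 95060391 to 95060513 scored 55 in replicate 1 and 49 in replicate 2 (52 ± 4.24, n = 2). The site at 95067144 to 95067266 scored 60 and 47 (53.5 ± 9.19, n = 2). They lay 6.75 kb apart, and 29.9 and 23.2 kb below the end of SERPINA3, a gene on the plus strand. The hg19 start of SERPINA3 was not used either, so the pair is not assigned to this gene or to SERPINA5 before it. The order of the 2 sites by score differed between the replicates, so their strengths were not told apart. On chromosome 14 they ranked 48th and 39th of 1768 peaks in replicate 1, and 38th and 40th of 707 in replicate 2. Their mean scores were at or above those of 92.7% and 93.1% of all shared sites.

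The last site, at 95103267 to 95103389, lay 12.9 kb past the 3′ end of SERPINA3 and scored 29 in replicate 1 and 20 in replicate 2 (24.5 ± 6.36, n = 2). Its peaks were centred 59 bp apart in the replicates. It was the only peak of either replicate in the flank above SERPINA3, where RefSeq lists the pseudogenes ADIPOR1P2 and SERPINA13P next in order. The flank below SERPINA10, towards PPP4R4, held none. The stretch from the SERPINA1 start to the SERPINA3 end is 233 kb long. From 3 sites, it carried 59.4% of the summed score of the 9 sites in replicate 1 and 50.8% in replicate 2. The shorter SERPINA10 to SERPINA1 stretch, 93.4 kb long, carried 25.9% and 37.3% from 4. These shares are not scaled by length.

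All 9 replicate 2 peaks (95% Wilson interval 70.1% to 100%) had a replicate 1 partner, against 90.5% over the whole list, which lies within that interval. The interval covers counting error only, treats the peaks as independent and does not measure variation between replicates. The ratio of replicate 1 to replicate 2 scores ran from 0.6 to 2.08 with a median of 1.12. Relative to the genome-wide median ratio, no site differed by more than 2-fold, compared with 9.77% of all shared sites, and the weaker site of the close pair lay at the 2-fold limit. The log2 ratio had an SD of 0.54 over the 9 sites and 0.62 over all shared sites. The midpoints of the paired peaks were a median of 13 bp apart (range 1 to 61), against 15 bp in all. Of the 9 sites, 6 had another within 10 kb, compared with 39.0% of all shared sites, without adjustment for the cluster's 2.24-fold density. These 6 were the 3 pairs described, the close pair before SERPINA1, the pair at the SERPINA1 start and the pair before the SERPINA3 end.

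**Figure D3:**
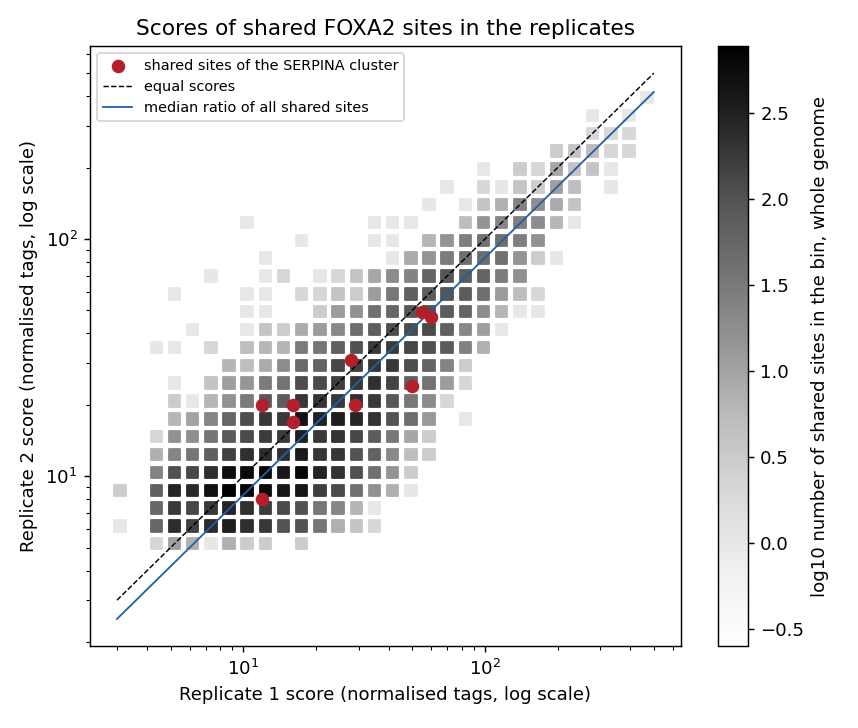
Replicate 1 score (horizontal log axis, normalised tags) against replicate 2 score (vertical log axis) of shared sites. Grey squares count all shared sites of the genome per bin and red points are the 9 of the SERPINA cluster, which lie on both sides of the blue line at the median ratio of 1.20.

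The other 18 peaks of the cluster were found in replicate 1 alone, and all were weak. They scored between 4 and 9 with a median of 6.5, whereas the 9 shared peaks scored between 12 and 60 in that replicate, so the score ranges did not overlap. In all, 33.3% of the replicate 1 peaks of the cluster were shared, against 38.1% of its whole list. Among all replicate 1 peaks, 14.1% of those scoring 4 to 9 and 79.3% of those scoring 12 to 60 were shared. The highest of the 18 were at 94786624 to 94786746 with a score of 9 and at 94869764 to 94869886 with 8, followed by 7 peaks at a score of 7.

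The calling threshold of replicate 2 was 10 tags. With equal scores in both replicates, so that only depth differs, the 18 scores correspond to between 6.3 and 14.2 tags there, below the threshold for 9 peaks and above it for 9. With the scores also divided by the median ratio of 1.20, they correspond to between 5.25 and 11.8 tags, below the threshold for 16. That ratio comes from shared sites only, whose median score in replicate 1 was 16. Whether it holds for peaks as weak as these 18 was not tested. Shared sites scored as low as 5 in replicate 2, which converts to 7.88 tags and is also below the threshold. The converted values therefore do not show which of the 18 could have been called. What kept these peaks out of the replicate 2 list was not tested. Of the 18, 9 lay within 10 kb of a shared site of the cluster, compared with 28.4% of all peaks of replicate 1 alone. That comparison was not adjusted for the cluster's 2.24-fold density of shared sites. Between SERPINA10 and SERPINA1 there were 8 such weak peaks, within SERPINA1 there was 1, and between the SERPINA1 start and the SERPINA3 end there were 9. The flanks held none.

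**Figure D4:**
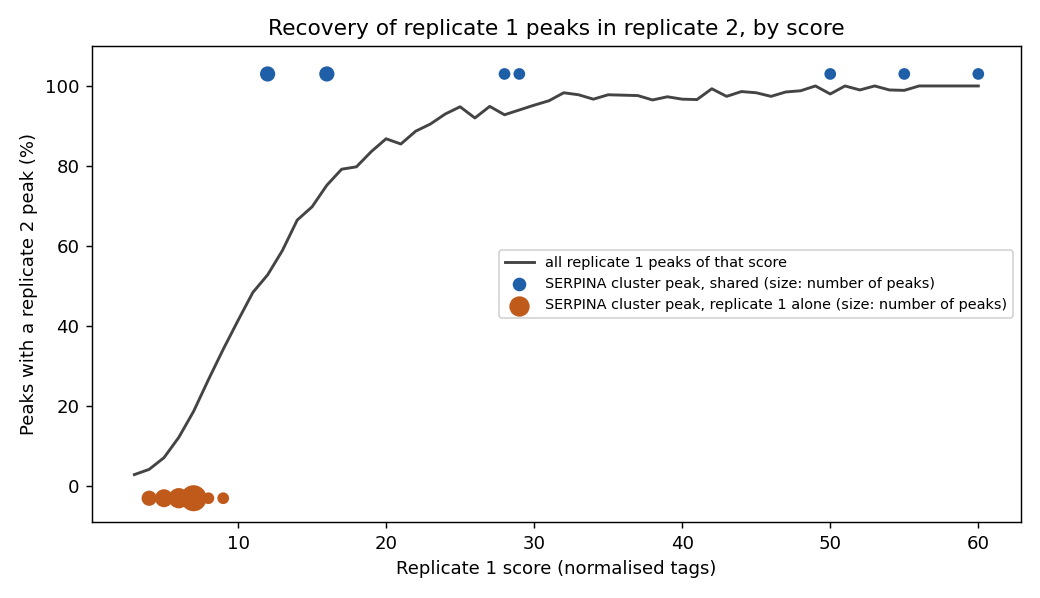
Score of replicate 1 peaks (horizontal axis, normalised tags) against the percentage with an overlapping replicate 2 peak (vertical axis), as a line for all peaks. Blue points at the top are the 9 shared peaks of the cluster, from a score of 12, and orange points at the bottom are the 18 found in replicate 1 alone, up to a score of 9. Point size shows the number of peaks.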

How the data were processed

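FOXA2 ChIP-seq peak lists of 2 Caco2 replicates were analysed, and the input entered only through the calling. The submitters' processing notes name hg19, Bowtie 1.0.0 and HOMER 1.2. HOMER findPeaks ran in factor style on each replicate by itself with the input as control, per the file headers. Peaks had to exceed both input and the local 10000 bp by 4-fold (Poisson p of 0.0001 each), at a false discovery rate of 0.001, with at most 1 tag per position. Tag thresholds were 11 and 10. Peak widths were 123 bp (replicate 1) and, for the longer fragments of replicate 2, 151 bp.

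The deposited score was read as the authors' tag count scaled to 10000000 tags and rounded. Shared sites are replicate 1 peaks with at least 1 bp in common with a replicate 2 peak. Intervals cover counting error only. Coordinates are 1-based. Gene positions on hg19 were those defining the region (SERPINA10, SERPINA1, SERPINA3), and gene order and promoters came from RefSeq GRCh38.p14 without conversion. The planned assignment of sites to the nearest gene was therefore replaced by intervals between these genes, and motifs were searched in promoters, not under peaks. Every shared site was named, with the highest-scoring peaks of replicate 1 alone. Genes, region and lists were chosen with earlier results of these data known, and no chance test was made. Python 3.11.15, numpy 2.4.6, pandas 2.3.3, scipy 1.17.1 and matplotlib 3.10.9 were used, and the overlap and motif searches were tested on simulated data.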

Additional observations from a re-analysis of the deposited data

How the results depend on the processing

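The number of shared sites in the SERPINA cluster was 9 with an overlap of 50% of both peaks and with midpoints within 100 bp or 500 bp. It was 8 when peaks had to score at least 10, which removes the site inside SERPINA1, and 8 without the flanks, which removes the one past SERPINA3. Without either replicate in turn it ranged from 9 to 27, the higher value being the whole replicate 1 list of the cluster. All replicate 2 peaks of the cluster were shared under each overlap rule and score limit tried. The density relative to all windows, 2.24-fold, was 2.58-fold without the flanks and ranged from 2.03 to 2.56 without either replicate. It was 2.24 with windows moved by 220 kb, an alternative chosen after seeing the data. With 50 bases after the start added to the motif search, also chosen later, 3 of 13 starts again held a forkhead motif, against 9.57% of all starts. Motifs under peaks, the nearest-gene alternatives and counts around serpin genes elsewhere were not run, since no genome or annotation of the build was used here. No paired analysis was possible because the 2 replicates form a single group. A score of 6 in replicate 1 converts to about 15.7 tags there. It converts to 9.45 tags at the depth of replicate 2, and to 7.88 if the median ratio also applies. The median ratio was taken from shared sites only and may not hold at such low scores. Depth and a difference in scores between the replicates were not told apart for such weak peaks.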
